A study of Rattus norvegicus with 3 samples.

Results

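The von Ebner gland lipocalin genes of the rat were represented on the array by 2 probes, Vegp1 (now named Lcn1) and Vegp2. They are the probes among 41012 whose coordinates in the rn4 build lie on chromosome 3 between 4700000 and 5000000 and whose gene name or description names a lipocalin or a von Ebner gland protein. The RNA was taken from pieces of parotid, submandibular or sublingual gland of male Wistar rats, 10 weeks old, for which the labels give no treatment and no genetic alteration. Each gland was hybridised to 1 Agilent array, so there are 3 arrays and no replicates. The series' design mentions 3 rats, and the sources used here do not say whether an array stands for 1 animal or a pool. The submandibular array is called submandibular-labelled, for a reason given with the marker genes. No test was made and no p-value is given. The members were chosen with the levels on these same arrays known, so their differences between glands are a description.

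Von Ebner glands are small serous glands of the tongue that open into the trenches around taste papillae. Their main secreted products include lipocalins, small barrel-shaped proteins that bind lipids and other hydrophobic molecules. The human counterpart of Lcn1, also called tear lipocalin, is abundant in tears. Fewer cells of a type and less RNA per cell cannot be told apart in RNA from whole glands.

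The RefSeq promoter table (GRCr8 build) held an entry for both genes, and the 250 bases before each annotated start are shown because the genes shared their pattern across the arrays and these stretches are nearly the same sequence. The Vegp2 stretch is chr3:29919163-29919412 on the minus strand and the Lcn1 stretch is chr3:29930693-29930942 on the plus strand. The capitals mark TATAAA, the letters of a TATA box.
Vegp2: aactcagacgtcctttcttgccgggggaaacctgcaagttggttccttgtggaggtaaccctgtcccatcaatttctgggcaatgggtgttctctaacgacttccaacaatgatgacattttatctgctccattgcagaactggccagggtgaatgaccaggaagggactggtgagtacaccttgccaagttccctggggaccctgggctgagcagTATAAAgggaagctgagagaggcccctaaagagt
Lcn1: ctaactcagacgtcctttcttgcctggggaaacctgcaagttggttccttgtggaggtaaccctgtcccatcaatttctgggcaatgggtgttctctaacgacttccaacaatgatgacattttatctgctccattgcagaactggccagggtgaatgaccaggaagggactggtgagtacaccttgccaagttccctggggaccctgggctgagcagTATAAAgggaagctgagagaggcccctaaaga

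Set against each other with a shift of 2 bases, the stretches were identical at 247 of 248 aligned bases (99.6%). The 1 difference was G23T, with positions counted from 1 at the first base of the Vegp2 stretch and the Vegp2 base given first. Among 33469 promoter entries, searched on both strands, the only entry besides Vegp2 itself that shared a run of 30 bases with the Vegp2 stretch was Lcn1. TATAAA occurred once on the forward strand of each stretch and not on the reverse strand, starting 34 bases before the annotated start in Vegp2 and 32 bases before it in Lcn1. In windows of the same length it was present on either strand in 12.9% of all entries, and 47 entries (0.140%) had it on the forward strand at one of these positions. A match of letters is a description, not evidence of a binding site. The genes lie on opposite strands, and the files place their probes accordingly.

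In rn4, the Vegp2 probe (NM_053574) lay on chromosome 3 from 4864376 to 4864435 on the minus strand. The Vegp1 probe (NM_022945) lay on chromosome 3 from 4881854 to 4881913 on the plus strand, 17.4 kb away. Each probe had 1 spot per array. Whether a probe lies in an exon or a UTR was not examined. The probes' sequences were not used here. Because the genes are near-identical copies at their promoters, and may be so in their transcripts, the probes may share signal and are not counted as independent of each other.

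Both lipocalins were bright in the parotid and not well above background in either other gland. Vegp1 had a processed signal of 2380 for the parotid, 5.24 for the submandibular-labelled gland and 8.36 for the sublingual gland. Vegp2 had a processed signal of 2160 for the parotid, 4.29 for the submandibular-labelled gland and 4.05 for the sublingual gland. The software's own error estimate for the parotid spots was 238 for Vegp1 and 216 for Vegp2, which covers the spot and not the animal. For both genes the parotid stood first, and the other glands had no order between them, since a spot that is not well above background gives only a bound.

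**Figure D1:**
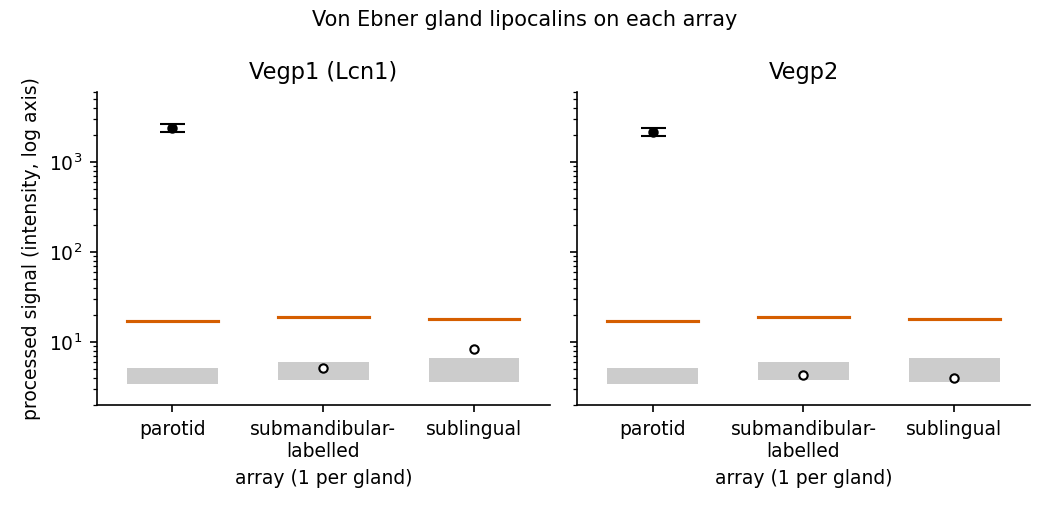
Processed signal (log axis) of the Vegp1 and Vegp2 probes on each array; filled points are well above background, open points are not, bars on the filled points are the scanner software's error of the spot, the orange line is the lowest probe well above background on that array and the grey band spans the negative control spots. The parotid points stand at 2380 and 2160, and no open point reaches the orange line at 19.1 (submandibular-labelled) or 18.3 (sublingual).

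Levels are given as log2 of the processed signal relative to the 75th percentile of the probes on each array. Vegp1 stood at 3.68 (parotid), -5.44 (submandibular-labelled) and -4.87 (sublingual). Vegp2 stood at 3.54, -5.73 and -5.91 in the same order. The lowest probe well above background stood at -3.58 (submandibular-labelled) and -3.74 (sublingual), and all 4 dim values lay below it. Folds are therefore lower bounds, the parotid level against that lowest level.

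For Vegp1 the parotid level exceeded the submandibular-labelled level at least 153-fold, a log2 difference of -7.25. It exceeded the sublingual level at least 171-fold (-7.41). For Vegp2 the folds were at least 139 (-7.12) against the submandibular-labelled array and at least 155 (-7.27) against the sublingual array. Both comparisons use the same parotid array, so they are not independent. With normexp background correction, which adds an offset to every spot, the bounds were smaller, at least 30.4-fold and 32.8-fold for Vegp1 and at least 33.7-fold and 36.4-fold for Vegp2. Among spots well above background, probes printed at several positions of an array varied between those positions with a median SD of 0.08 to 0.09 (log2). That spread does not cover dim spots, such as those of Vegp1 and Vegp2 on the other arrays. It too leaves out the spread between animals. No fold is given between the submandibular-labelled and sublingual arrays, where neither gene was well above background on either side.

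Against the parotid, both genes thus passed a 4-fold difference on each other array, and between the submandibular-labelled and sublingual arrays neither could be compared. Over all probes compared, 701 of 24012 (2.92%) had a submandibular-labelled level 4-fold or more below the parotid level, and 637 of 24505 (2.60%) had such a sublingual level. In the other direction the shares were 2.45% and 2.52%. Below the parotid by this much on both arrays were 513 of 23738 probes (2.16%). Between the other arrays, the sublingual level was 4-fold lower for 0.0732% and 4-fold higher for 0.146% of 23213 probes. Centring each array on its median changed this split to 471 lower and 819 higher probes (submandibular-labelled) and 486 lower and 829 higher (sublingual), by moving the median of all probes from 0.00 to 0.32 and from 0.02 to 0.25. Of 24779 probes well above background on any array, 1562 (6.30%) were so on the parotid array alone, and 163 (0.658%) were in addition at least 4-fold above both other arrays, the pattern of Vegp1 and Vegp2. The genes were chosen by position and name with their levels in this contrast known, and nothing is read from these shares.

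**Figure D2:**
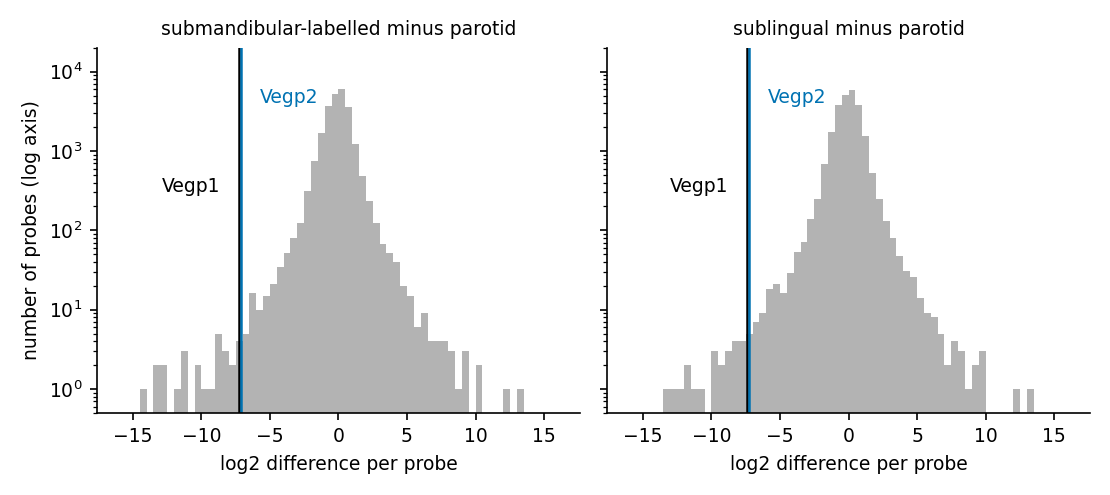
Number of probes (log axis) by log2 difference from the parotid array, in bins of 0.5, for the submandibular-labelled and the sublingual array; vertical lines mark the bounds for Vegp1 and Vegp2. Both lines lie between -7.5 and -7.0, in the left tail, while most probes lie near 0.

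The spots themselves were clean. No outlier or saturation flag was set on any of the 6 spots. On the parotid array the mean signal before background subtraction was 2210 for Vegp1 and 2440 for Vegp2, against backgrounds of 159 and 153. On the submandibular-labelled array it was 153 for Vegp1 against a background of 155, and 162 for Vegp2 against 160. On the sublingual array it was 162 for Vegp1 against 155, and 162 for Vegp2 against 167. Of these 4 dim spots, 3 carried a surrogate value in place of a measured signal.

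The exception was Vegp1 on the sublingual array. Its signal of 8.36 was measured, was flagged as positive and significant against its own background, and exceeded all 153 negative control spots, whose highest value there was 6.67. It still fell short of the software's stricter criterion of well above background, and no level is claimed from it. On the submandibular-labelled array the Vegp1 signal exceeded 134 and the Vegp2 signal 48 of 153 negative control spots, and on the sublingual array the Vegp2 signal exceeded 44.

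The window around the genes held 6 other probes, and the 4 that were detected on every array differed from the parotid by less than 4-fold. Egfl7, a secreted protein of endothelial cells, had signals of 1560, 995 and 1480 on the parotid, submandibular-labelled and sublingual arrays. Agpat2, an acyltransferase of phospholipid and triglyceride synthesis, had 119, 104 and 108. Dipk1b (RGD1308600 in the files) had 70.7, 77.7 and 76.6, and the expressed sequence tag H32804 had 974, 434 and 668. These 4 were well above background on every array, and their log2 differences from the parotid lay between -1.46 and -0.16. That of Dipk1b on the submandibular-labelled array turned from -0.16 to 0.01 with quantile normalization and to 0.15 with median centring. The tag AA850494 was not well above background on any array.

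The remaining probe, LOC681186, sits between Dipk1b and Vegp2, and RefSeq now names the gene Lcnl, a lipocalin-like gene. The files describe it as a hypothetical protein, so the rule did not take it. Its signals were 72.5, 5.39 and 5.20, well above background in the parotid alone. The parotid level was at least 4.65 times the submandibular-labelled level (log2 difference -2.22) and at least 5.20 times the sublingual level (-2.38). Both bounds fell short of 4-fold with normexp correction (-0.91 and -1.02) and with the detection limit set at the 5th percentile of detected probes (-1.71 and -1.88). The submandibular-labelled bound also did so with quantile normalization (-1.99) and median centring (-1.91).

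**Figure D3:**
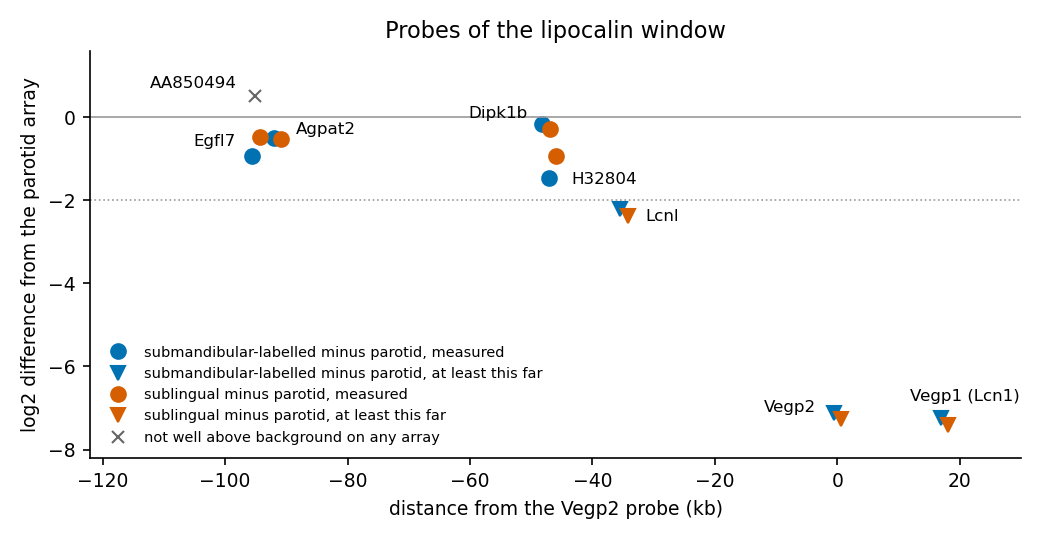
Log2 difference from the parotid array for the 8 probes of the window, by distance in kb from the Vegp2 probe; circles are measured on both arrays, triangles are bounds with the dim side not well above background, the cross is a probe dim on every array and the dotted line marks 4-fold. Vegp1, Vegp2 and Lcnl are the probes beyond the dotted line, and the other measured probes lie between -1.46 and -0.16, where Dipk1b turns to 0.01 (submandibular-labelled) with quantile normalization.

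Just outside the window, the nearest probe on the lower side (Notch1, a cell surface receptor) was not well above background on any array. The nearest on the upper side, for the pseudogene Got2-ps5, had signals of 224, 233 and 209. The nearest lipocalin-named probes outside it on the chromosome were Lcn9, from 3997881 to 3998060, and a predicted vomeronasal secretory protein named as lipocalin 4 in its description, from 5310133 to 5310421. Neither was well above background on any array. A further probe, LOC338400, is described as a von Ebner's-like protein, has no coordinate in the files and was not matched to a RefSeq gene. Its signals were 283, 5.42 and 5.22, at least 18.2-fold and 20.3-fold higher in the parotid. With normexp these bounds were at least 4.35-fold and 4.69-fold, close to the 4-fold threshold.

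Other members of the lipocalin family did not all follow this pattern. Of 28 listed genes, 17 had a matched probe and 10 were well above background on at least 1 array. Of these 10, 5 (Obp2b, Mup4, Mup5, Obp3 and Lcn2) stood 4-fold or more below the parotid on each other array, beside 2.16% of all probes compared. None stood 4-fold above it, except that Apod did so on the submandibular-labelled array with median centring (4.44-fold, a log2 difference of 2.15). Their median difference was -2.89 (submandibular-labelled) and -2.90 (sublingual), beside 0.00 and 0.02 over all probes. Where both sides had to be well above background, 3 were at least 4-fold lower on each array. The list was written with earlier results of these data known, and its count is a description.

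Obp2b, an odorant-binding lipocalin elsewhere on chromosome 3 (probe from 3936682 to 3936741 in rn4), had signals of 4800, 5.65 and 5.53, at least 308-fold and 344-fold higher in the parotid, or at least 56.1-fold and 60.6-fold with normexp. Like Vegp1 and Vegp2, it was well above background in the parotid alone. Lcn2, an iron-siderophore binding defence protein, was detected in all glands, at 6080, 347 and 234, and was 21.5-fold and 34.1-fold higher in the parotid. The alpha-2u globulin genes, carriers of pheromones in urine, went the same way. Mup5 had 12000, 169 and 229, Obp3 had 1150, 47.5 and 76.4, and Mup4 had 477, 4.16 and 3.93. Their folds were 87.0 and 68.7 (Mup5), 29.7 and 19.8 (Obp3), and at least 30.6 and 34.2 (Mup4). With normexp they were 57.0 and 49.2, 12.3 and 10.4, and at least 8.59 and 9.27. Alpha-2u globulin genes are closely similar to each other, and shared signal between these probes was not tested.

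The other 5 detected genes of the list differed by less than 4-fold, apart from Apod with median centring. Ptgds, a prostaglandin D synthase, was 2.54-fold and 2.82-fold higher in the parotid (1.61-fold and 1.76-fold with normexp), and the retinol carrier Rbp4 1.89-fold and 1.54-fold higher. Apom, an apolipoprotein, was 1.46-fold and 1.54-fold higher in the parotid. Apod, another apolipoprotein, was 3.57-fold and 2.73-fold lower in the parotid (2.23-fold and 1.95-fold with normexp), and C8g, a complement component, 1.53-fold and 1.65-fold lower. Lcn5, Lcn6, Lcn8, Lcn9, Obp1f, Orm1 and Ambp were not well above background on any array.

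**Figure D4:**
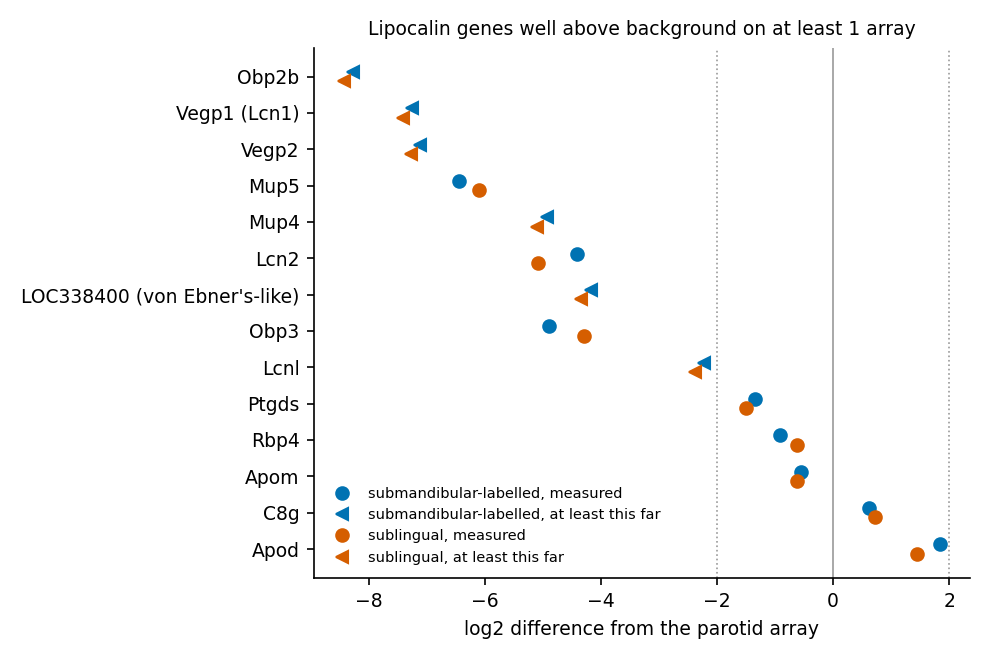
Log2 difference from the parotid array for lipocalin genes well above background on at least 1 array; circles are measured on both sides, triangles are bounds, and dotted lines mark 4-fold in each direction. Obp2b, Vegp1, Vegp2, Mup4, LOC338400 and Lcnl appear as bounds, and C8g and Apod lie to the right of 0.

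Lmbr1l, which encodes the lipocalin-1 receptor, had signals of 72.1, 51.1 and 68.1. The parotid level exceeded the submandibular-labelled one 1.73-fold and the sublingual one 1.39-fold. These folds were 1.37 and 1.27 with normexp, and 1.39 and 1.17 with median centring. All 7 genes of the receptor and retinoid-handling list had a probe, and 4 were well above background on every array. None of the 4 was 4-fold apart from the parotid. Over all probes compared, 2.92% lay 4-fold or more below the parotid and 2.45% above it on the submandibular-labelled array. On the sublingual array these shares were 2.60% and 2.52%. A count of none among 4 genes is near these shares, and nothing is read from it. Crabp1, a cytosolic retinoic acid carrier, stood above the parotid by 1.72 and 1.67 on the log2 scale, and with median centring its submandibular-labelled difference passed 4-fold (2.03).

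Lipf, the lingual lipase of von Ebner glands, was not well above background on any array, with signals of 5.01, 6.81 and 4.86. Of 7 listed products of lingual serous glands, 6 had a probe and 5 were well above background, and these did not move together. Lpo, lactoperoxidase, had signals of 8770, 592 and 319, and Bpifa2, the parotid secretory protein, 213000, 37400 and 20700. Amy1, salivary amylase, had 322000, 419 and 1080. The parotid level of these 3 products exceeded both others by 4-fold or more, beside 2.16% of all probes compared. Bpifb2, with 87.5, 37000 and 35600, and Zg16b, with 49.5, 2970 and 1830, were at least 4-fold lower in the parotid. Over all probes compared, 2.45% (submandibular-labelled) and 2.52% (sublingual) stood that far above the parotid. The list was written with earlier results of these data known, and its counts are a description.

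Of 7 parotid acinar markers, 5 were at least 4-fold above both other arrays, beside 2.16% of all probes compared. Aqp5, a water channel of serous acini, went the other way, with signals of 11300, 39000 and 38300, and Bhlha15, a secretory cell transcription factor, had 6570, 3040 and 2480. Of 5 listed sublingual mucous acinar markers, 4 had a probe, and 2 were at least 4-fold above the parotid on each other array. The shares over all probes compared were 2.45% (submandibular-labelled) and 2.52% (sublingual). Muc19, a gel-forming mucin, had signals of 10.2 (not well above background), 203000 and 204000. Agr2 had 10.6 (not well above background), 95800 and 116000. Creb3l1 stood above the parotid by less than 4-fold (2030, 7750 and 6670), and Galnt12 was not well above background on any array. The array labelled as submandibular is called submandibular-labelled because its levels were close to those of the sublingual array. They correlated at r = 0.989 over 19873 probes well above background on all arrays (0.924 and 0.926 for the parotid pairs, across probes, which are not replicates). None of 7 listed genes of submandibular granular ducts and acini was at least 4-fold higher there than in the parotid, beside 2.45% of all probes compared. That count is near this share, and nothing is read from it. Smr3b, among the 7, was well above background on the submandibular-labelled array alone, with signals of 18.1, 36.0 and 4.08. No spot was saturated, and 52.8% to 55.3% of probes were well above background per array.

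Markers of neighbouring tissues were examined because the lacrimal gland secretes tear lipocalin. Among the lacrimal markers, Pax6, an eye and lacrimal transcription factor, was well above background in the parotid alone, at 34.1 against 4.52 and 4.29. Scgb2a1 was not well above background on any array. Their part in the lipocalin signal was not tested. Of 4 skeletal muscle markers, Ckm and Myh4 were not well above background on any array. Acta1, skeletal muscle actin, had signals of 75.6, 536 and 400, and Mylpf, a fast muscle myosin light chain, had 17.2 (not well above background), 31.3 and 68.6, so both were lowest in the parotid. The 2 measured lymph node markers and the 3 taste and nasal epithelium markers were not well above background on any array.

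The genes whose pattern over the 3 arrays was most like that of the lipocalins were sought among 1557 probes, other than Vegp1 and Vegp2, with a value on every array and well above background in the parotid alone. Likeness was the distance between log2 levels after each probe's own mean was removed. It rests on the values of spots not well above background, so the genes it picks are given without an order. Obp2b, Tfap2b, Prb1 and Sp2 were among the 5 picked for Vegp1 and the 5 picked for Vegp2, Cldn22 was picked for Vegp2 alone and Vom2r10 for Vegp1 alone. Tfap2b, an AP-2 transcription factor, had signals of 3480, 4.30 and 6.96. Prb1, a proline-rich salivary protein, had 787, 4.55 and 4.29. The bounds of the picked genes differ widely, from at least 42.1-fold and 47.0-fold for Sp2 to at least 308-fold and 344-fold for Obp2b. Those of Cldn22, a claudin, were at least 162-fold and 155-fold, so the distance does not follow the bounds.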

How the data were processed

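Total RNA (500 ng) was copied into Cy3-labelled cRNA and hybridised to 1 array per gland, per the labels' protocols. The deposited intensity values per spot, the 0 or 1 flags and the p-value of each spot against its background (not used for a result) came from Agilent Feature Extraction 10.1.1.1, protocol GE1-v5_10_Apr08, design 014879, build rn4, per the file headers. The authors' deposited ratio of each of 43379 spots is on a linear scale: above a signal of 1000, processed signal over this ratio was 1 constant in each array (190, 236 and 250), with a range of at most 0.0142 in log2. Its column medians are 0.152, 0.122 and 0.128.

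Levels are log2 processed signal minus the 75th percentile of each array (signals of 186, 228 and 244), without control or outlier-flagged spots. Folds with 1 dim side are bounds as described in the results. A multi-spot probe counted as well above background only if all its spots were, and a gene with several probes was represented by the one with the highest mean level. Of 41012 probes, 20327 were matched to a gene of the RefSeq table of GRCr8, used for names. Some members of the gene lists are not reported here. The members and lists were chosen with earlier results of these data known. The 5th-percentile and scaling alternatives were run for the list genes too. Named genes were all members, the other probes of the window, the nearest outside it, up to 6 per list by size of difference plus Lmbr1l and Lipf, and the 5 nearest in pattern per member; the other genes given are markers or remaining family members named after their values were seen. The alternatives were median centring, quantile normalization, normexp with an offset of 50 (limma 3.58.1, R 4.3.3), the deposited ratios, outlier spots kept, other bounds, filters and thresholds. Counting was tested on simulated data. Python 3.11.15, numpy 2.4.6, pandas 2.3.3 and matplotlib 3.10.9 were used. The number of arrays limits the precision.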

Additional observations from a re-analysis of the deposited data

How the results depend on the processing

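Under every alternative that could give a value, Vegp1 and Vegp2 were lower than the parotid on both other arrays by at least 10-fold. For the submandibular-labelled array, the log2 difference of Vegp1 (-7.25) was -4.92 with normexp, -6.94 with median centring and -6.75 with the detection limit at the 5th percentile of detected probes, and that of Vegp2 (-7.12) was -5.08, -6.80 and -6.61. For the sublingual array, Vegp1 (-7.41) was at -5.04, -7.17 and -6.91 and Vegp2 (-7.27) at -5.19, -7.03 and -6.77. Quantile normalization, the deposited ratios and keeping outlier-flagged spots gave values between -7.53 and -7.12. A filter asking for both sides well above background leaves no value for either gene. The numbers of all probes at least 4-fold apart, 1289, 1255 and 51 (submandibular-labelled and sublingual against parotid, sublingual against submandibular-labelled), were 572, 585 and 22 with normexp, 5419, 5759 and 519 at 2-fold and 384, 388 and 22 at 10-fold. With both sides well above background they were 854 for the first and 26 for the third pair. No paired analysis was possible because each gland has 1 array. The low signals of the dim arrays limit the folds to bounds.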
